A study of Mus musculus with 3 samples.

Results

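The respiratory chain genes described here are the subunits of the 5 complexes of oxidative phosphorylation, encoded in the nucleus or in mitochondrial DNA. They were taken by symbol (Ndufa, Ndufb, Ndufc, Ndufs, Ndufv, Sdha to Sdhd, Uqcr, Cox4i, Cox5 to Cox8, Atp5 and mt-), without the Ndufaf assembly factors and the mitochondrial tRNA and rRNA genes, and needed at least 50 UMIs (unique molecular identifiers, counted RNA molecules) over the 3 libraries. Of 103 matching genes, 99 met the minimum, among 32285 features of which 13095 met it. The 4 below it were mt-Nd6 with 42 UMIs, the heart and skeletal muscle isoform Cox6a2 with 22, and Cox7b2 and Cox8c with 0. The 99 members were 82 nuclear subunits (37 of complex I, 4 of complex II, 8 of complex III, 16 of complex IV and 17 of complex V), 12 mitochondrial subunits (6 of complex I, 1 of complex III, 3 of complex IV and 2 of complex V) and 5 genes caught by their prefix, Cox7a2l and Sdhaf1 to Sdhaf4, which were kept apart as assembly factors. Ndufa4 and its paralog Ndufa4l2 were counted with complex IV, to which the Ndufa4 protein belongs.

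The study profiled mouse distal colon with Visium, which counts the UMIs of every gene at each barcoded spot under a frozen section, a spot being a small region that can hold several cell types. There were 3 libraries: intact tissue of Hgfac wild-type mice (WT intact), wounds of Hgfac wild-type mice at day 2 (WT wound) and wounds of Hgfac knockout mice at day 2 (KO wound). Hgfac encodes a serine protease that activates hepatocyte growth factor, and the labels give no age, sex or further allele for any group, nor how the knockout was made. Each library held 3 biological replicates on 1 capture area and no knockout intact tissue was analysed here, so each group is 1 sample and capture area and group cannot be told apart. The sections formed 3 separate tissue pieces per library, which the labels tie to no animal, and no test between groups was possible.

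Complexes I to IV pass electrons from NADH and succinate to oxygen and, except for complex II, pump protons across the inner mitochondrial membrane, and complex V, the ATP synthase, uses that gradient to make ATP. The mitochondrial genome encodes core membrane subunits of complexes I, III, IV and V, while all of complex II and the many accessory subunits are nuclear, so that each of the other complexes needs transcripts from both genomes. In the colon, differentiated surface cells oxidise butyrate from the lumen, and the smooth muscle of the wall also depends on this chain.

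The libraries held 8180099, 11306771 and 8930574 UMIs on 502, 640 and 572 spots, given here and below in the order WT intact, WT wound, KO wound. Hgfac itself was counted at 76.6, 94.8 and 49 CPM (counts per 1000000, relative to all UMIs of the library), so its transcript was lower but still counted in the library labelled KO, and the labels do not say which part of the gene is deleted. Spots were assigned to the layer whose marker genes scored highest, epithelium, smooth muscle, or stroma and immune cells, and the epithelial spots were divided into surface-led and crypt-led. These are ranges of a score and not cell types, and 8.17%, 10.5% and 14.3% of spots lay near a boundary. Muscle-led spots numbered 257, 173 and 66, and stroma- and immune-led spots 29, 159 and 161, so the wound libraries held fewer of the first and more of the second. The summed level of the 10 smooth muscle markers was 11460, 8255 and 6648 CPM, that of the 17 stroma and immune markers 3463, 7245 and 7816 CPM, and that of the 15 epithelium markers 21234, 20629 and 20598 CPM. In a bulk sum over spots, fewer cells of a type and less RNA per cell cannot be told apart.

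The sequences of 3 promoters are shown first because their genes, the complex IV subunits Cox8a, Cox5b and Cox6a1, carry much of the difference between wound and intact tissue. Each runs from 250 bases before to 50 after the gene start, 5′ to 3′ on the gene's strand, from RefSeq on GRCm38.p6. Cox8a lies at chr19:7217567-7217866 on the minus strand, Cox5b at chr1:36691237-36691536 on the plus strand and Cox6a1 at chr5:115348909-115349208 on the minus strand. Capitals mark letters of the motifs of NRF1 (GCGCA and GCGC with any 1 base between them) and GABP (CCGGAAG), searched on both strands, 2 factors known for their sites in promoters of respiratory genes. The motif of YY1 (AAGATGGC) was searched too.
Cox8a: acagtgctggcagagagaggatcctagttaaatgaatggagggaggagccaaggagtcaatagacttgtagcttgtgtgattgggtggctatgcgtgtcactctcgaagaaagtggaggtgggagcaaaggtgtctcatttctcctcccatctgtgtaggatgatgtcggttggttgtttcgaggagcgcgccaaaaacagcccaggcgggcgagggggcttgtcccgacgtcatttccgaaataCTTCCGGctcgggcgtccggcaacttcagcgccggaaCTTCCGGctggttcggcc
Cox5b: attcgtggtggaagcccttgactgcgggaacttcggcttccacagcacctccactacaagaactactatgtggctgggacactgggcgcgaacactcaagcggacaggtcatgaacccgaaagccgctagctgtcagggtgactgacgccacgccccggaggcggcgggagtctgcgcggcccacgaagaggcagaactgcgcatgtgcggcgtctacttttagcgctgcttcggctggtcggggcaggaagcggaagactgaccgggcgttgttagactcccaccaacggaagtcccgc
Cox6a1: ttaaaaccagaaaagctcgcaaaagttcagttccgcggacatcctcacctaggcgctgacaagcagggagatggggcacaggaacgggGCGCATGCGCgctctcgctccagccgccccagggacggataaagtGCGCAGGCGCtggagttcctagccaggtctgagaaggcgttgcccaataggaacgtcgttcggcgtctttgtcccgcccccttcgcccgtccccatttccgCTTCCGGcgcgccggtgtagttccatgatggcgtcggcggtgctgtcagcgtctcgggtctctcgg

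The GABP motif stood in the Cox8a and Cox6a1 windows, the NRF1 motif in that of Cox6a1, and none of the 3 motifs in that of Cox5b. Of the 73 members with a promoter in the RefSeq table, 40 (54.8%) held at least 1 of the 3 motifs, against 15.2% of the first listed promoters of all 27025 genes. The NRF1 motif was in 24.7% of member promoters and 4.78% of all, the GABP motif in 26% and 9.12%, and the YY1 motif in 12.3% and 2.88%. Member promoters also had a higher median GC content, 58.7% against 52.7%. Among the members described next as low in WT wound, 6 had a listed promoter and 3 of these (50%) held a motif, beside 55.2% of the other members. A match is a string of letters and was not tested as a binding site.

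Between WT intact and WT wound, the nuclear subunits took a smaller part of the UMIs and the mitochondrial ones did not. The summed level of the 82 nuclear subunits was 63692 CPM for the intact library, 48688 for WT wound and 45368 for KO wound, or 6.37%, 4.87% and 4.54% of all UMIs. The WT wound over WT intact ratio was 0.764 (95% interval 0.762 to 0.767, counting error only, as for all intervals here). The 3 pieces of WT wound, 44275 to 50883 CPM, all lay below those of WT intact, 58722 to 68337 CPM. The 12 mitochondrial subunits summed to 53590, 56004 and 42631 CPM, a ratio of 1.05 (1.04 to 1.05), and here the pieces overlapped, 42696 to 68232 CPM for intact tissue against 47246 to 63142 CPM for WT wound. That ratio did not keep its direction: it was 0.924 without piece 2 of WT intact and 0.969 without piece 1 of WT wound.

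By complex, the summed nuclear ratio was 0.792 for complex I, 0.871 for complex II, 0.762 for complex III, 0.654 for complex IV and 0.859 for complex V. The pieces of WT wound lay below those of WT intact for complexes I, III, IV and V, and overlapped for complex II. The mitochondrial sums gave 0.928 for complex I, 1.02 for complex III, 1.06 for complex IV and 1.1 for complex V, with overlapping pieces in each. In complex IV the nuclear and mitochondrial sums therefore lay furthest apart. Few genes weighed heavily there. Of the 20545 nuclear CPM of complex IV in WT intact, Cox8a, Cox5b and Cox6a1 held 3034, 1807 and 2319. Of the 13442 in WT wound they held 568, 359 and 626. The median ratio over the nuclear subunits of complexes I to V was 0.88, 0.87, 0.848, 0.826 and 0.87, closer together than the sums.

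Members were counted as changed where the ratio reached 2 or was no higher than 0.5. None of the 99 members reached 2 in WT wound over WT intact (3.29% of all 12402 genes compared did), and 8 (8.08%) were at or below 0.5, where 3.08% of all genes were. The median log2 ratio was -0.18 over the members and 0.09 over all genes. It was -0.18, -0.20, -0.24, -0.28 and -0.20 over the nuclear subunits of complexes I to V and -0.03 over the mitochondrial subunits. In 27 members (27.3%) all pieces of WT wound were below all pieces of WT intact, against 6.89% of all genes, and in 1, the complex II assembly factor Sdhaf1, all were above (1.01%, against 15.6%).

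**Figure D1:**
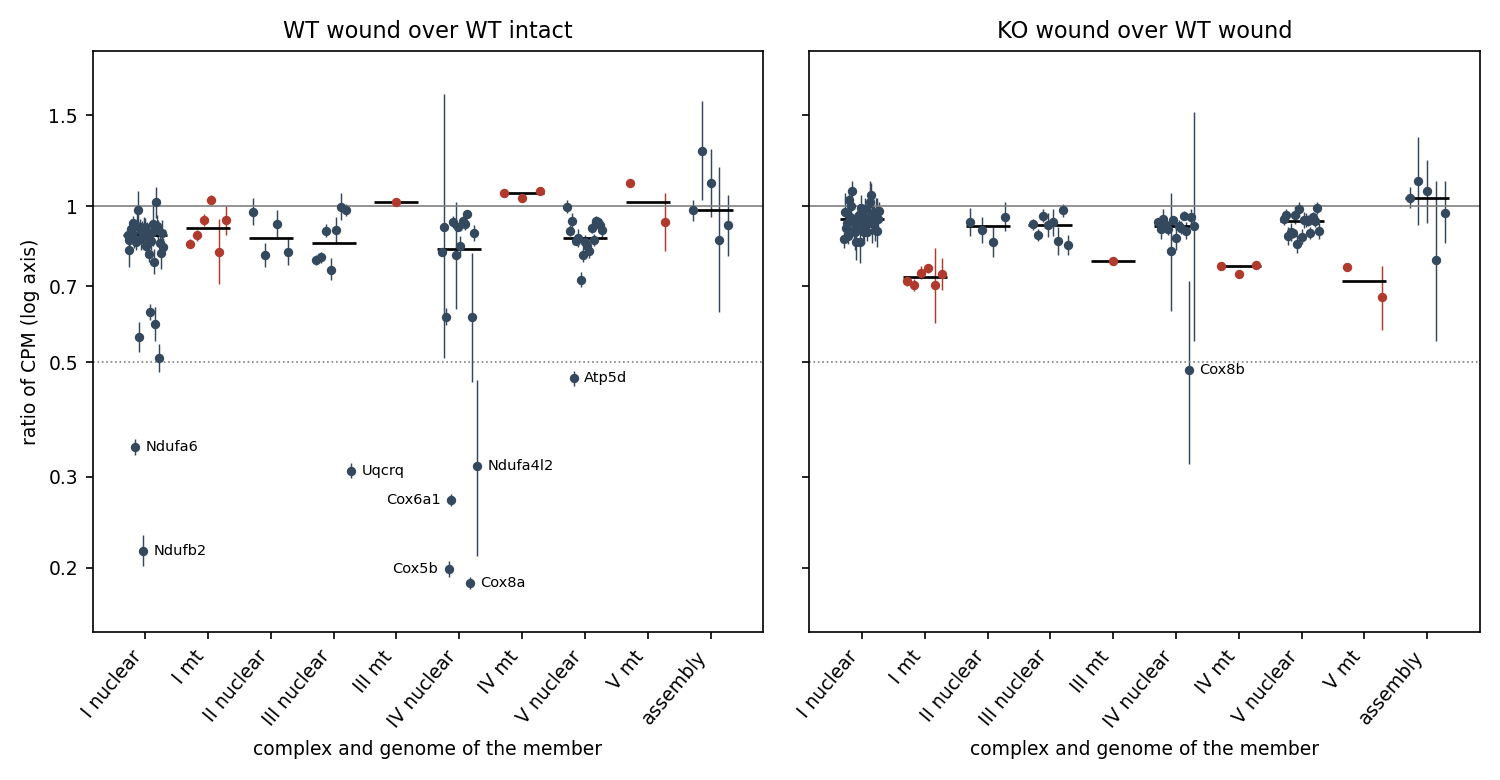
Ratio of CPM on a log axis for each member, with its 95% counting interval, by complex and genome (dark, nuclear; red, mitochondrial); black lines are medians, the grey line is 1 and the dotted line 0.5. At WT wound over WT intact 8 members lie at or below 0.5, and at KO wound over WT wound only Cox8b does among the 98 members with enough UMIs, while the 12 mitochondrial genes lie between 0.667 and 0.785.

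The 8 genes at or below 0.5 were spread over complexes I, III, IV and V, and all but Ndufa4l2 had at least 1081 UMIs in WT wound. Since each library had its own capture area, a difference in capture or processing between areas cannot be told apart from wounding in these ratios. The lowest was Cox8a, the common isoform of complex IV subunit 8. Its level was 2817, 3197 and 3018 CPM in the intact pieces, 641, 504 and 554 in those of WT wound, and 453, 604 and 493 in those of KO wound. Every wound piece was far below every intact piece, and the 2 wound libraries overlapped. The WT wound over WT intact ratio was 0.187 (0.182 to 0.192) from 24820 and 6418 UMIs.

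Cox5b, the nuclear subunit that binds zinc in complex IV, was at 1807, 2077 and 1507 CPM in the intact pieces, 417, 316 and 339.8 in those of WT wound, and 323, 352 and 347 in those of KO wound, a ratio of 0.199 (0.192 to 0.206). Cox6a1, the common isoform of subunit 6a, was at 2314, 2625 and 1982 CPM, then 779, 541 and 539, then 547, 639 and 557, a ratio of 0.27 (0.263 to 0.278). For both genes the intact pieces stood apart from all 6 wound pieces, with no gap between WT wound and KO wound. The fourth complex IV gene was Ndufa4l2, a paralog of Ndufa4 known to be induced by hypoxia, with only 92, 40 and 29 UMIs. Its pieces were at 6.54, 9.68 and 16.7 CPM in the intact pieces, 2.93, 3.21 and 4.75 in those of WT wound and 3.92, 1.14 and 4.44 in those of KO wound, a ratio of 0.315 (0.211 to 0.461). Its intact pieces differed more among themselves than those of the other genes, and still all exceeded the wound pieces.

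In complex I, the accessory subunit Ndufb2 was at 409, 476 and 430.1 CPM in the intact pieces, 109, 86.1 and 90.8 in those of WT wound, and 88.3, 73.9 and 81.4 in those of KO wound, a ratio of 0.216 (0.202 to 0.231). Ndufa6, an accessory subunit of the LYR motif family, was at 1276, 1198 and 1166 CPM, then 418, 410.4 and 411, then 403, 503 and 444, a ratio of 0.343 (0.331 to 0.355). Both showed a wide gap between intact and wound pieces and little spread within a library. Uqcrq, a small subunit of complex III, was at 1129, 1407 and 1277 CPM in the intact pieces, 435, 393 and 352 in those of WT wound, and 369, 296 and 326 in those of KO wound, a ratio of 0.308 (0.298 to 0.319). Atp5d, the delta subunit in the central stalk of the ATP synthase, was at 959.7, 1178 and 1005 CPM, then 503, 445 and 544, then 409, 471 and 452, a ratio of 0.465 (0.45 to 0.481). Again no wound piece reached an intact piece.

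Just outside the threshold were the complex I core subunit Ndufs7 at 0.509 and Ndufab1, the mitochondrial acyl carrier protein, at 0.558. They were followed by Ndufs3 at 0.592, Cox8b at 0.611, Cox5a at 0.612 and Ndufb9 at 0.625, and then by a gap to Atp5g1 at 0.721. Leaving out 1 piece at a time gave 7 to 9 members at or below 0.5, with Atp5d rising to 0.501 without piece 2 of WT intact and Ndufs7 as low as 0.492. Without the 8 low genes the other 74 nuclear subunits summed to 52523, 45731 and 42639 CPM, a WT wound over WT intact ratio of 0.871 (0.867 to 0.874), and the wound pieces were still below the intact ones. The genes lie on 7 chromosomes and 3 of the 8 overlap another gene. Their median span on GRCm38 was 3730 bp (1902 to 7881), against 7690 bp for the 79 other nuclear members, of which 24 overlap another gene. Whether span or overlap bears on the counts was not tested.

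**Figure D2:**
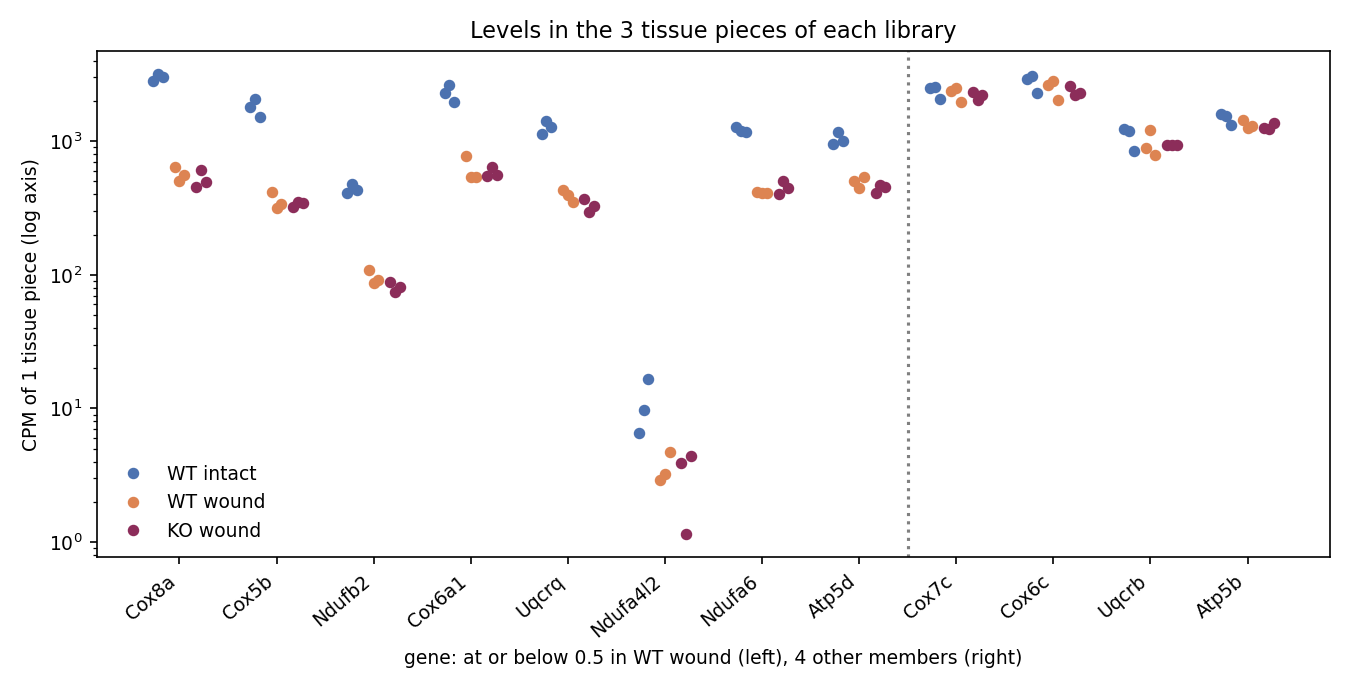
CPM on a log axis in each of the 3 tissue pieces of WT intact, WT wound and KO wound, for the 8 members at or below 0.5 and, right of the dotted line, for Cox7c, Cox6c, Uqcrb and Atp5b as examples of members that were not. Cox8a lies at 2817 to 3197 CPM in intact pieces and at 453 to 641 CPM in all wound pieces, whereas the pieces of the 4 other genes lie close together.

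The 7 of these genes with enough UMIs in each kind of spot were low in all of them. Cox8a was at 0.171 in surface-led, 0.207 in crypt-led, 0.234 in stroma- and immune-led and 0.213 in muscle-led spots. Cox5b was at 0.182, 0.219, 0.227 and 0.248 in the same order, and Uqcrq at 0.305, 0.34, 0.355 and 0.311. Atp5d, at 0.466, 0.449, 0.525 and 0.511, was the one of the 7 that crossed 0.5 between kinds of spot. At or below 0.5 were 7 of 96 members in epithelium-led spots (7.29%, against 2.77% of all genes), 7 of 97 in muscle-led spots (7.22%, against 3.18%) and 6 of 95 in stroma- and immune-led spots (6.32%, against 2.71%). WT intact had 29 stroma- and immune-led spots, in no piece as many as 20, so that ratio rests on the fewest spots. Spots of every layer can hold cells of the others, and the part of tissue content in these ratios was not tested.

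**Figure D3:**
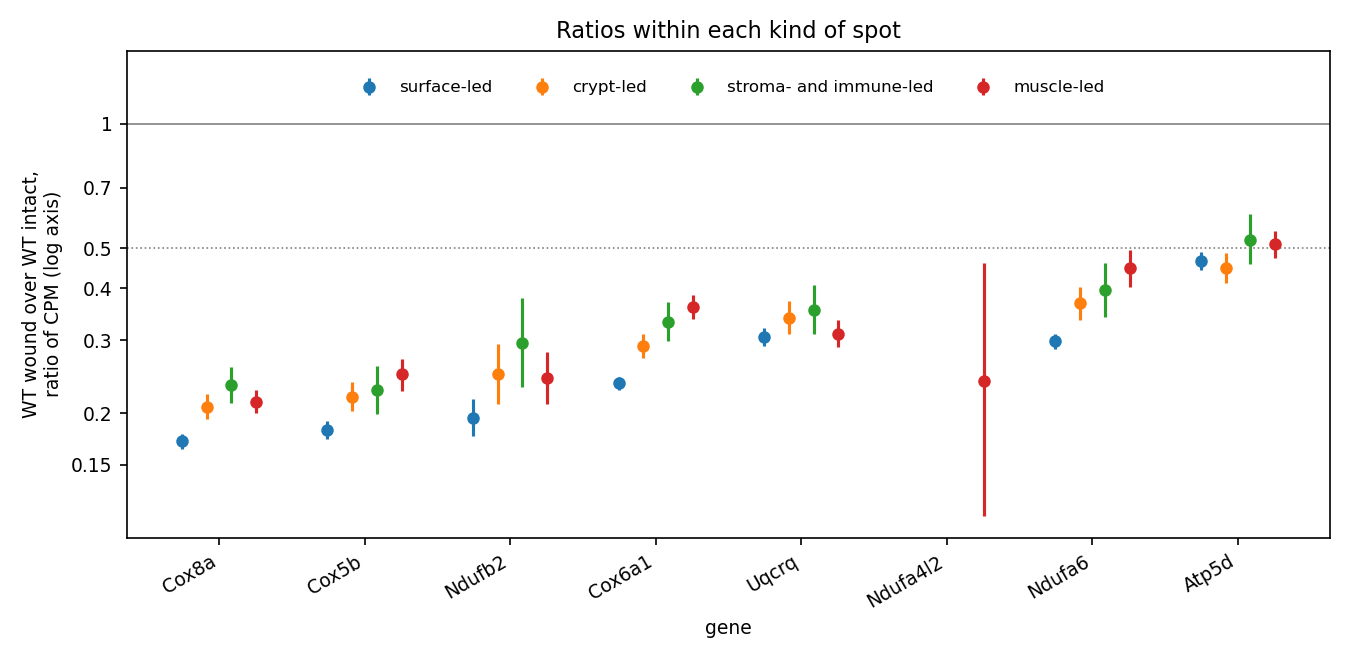
WT wound over WT intact ratio of CPM on a log axis, with 95% counting intervals, for the 8 members at or below 0.5 in the whole library, within 4 kinds of spot; the dotted line is 0.5. Cox8a lies between 0.171 and 0.234 in all 4, and Ndufa4l2 had enough UMIs only in muscle-led spots.

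Members that departed from their complex were those whose ratio was at least 1.5 times away from the median of the others. The others were the remaining members of the same complex encoded in the same genome. In WT wound over WT intact there were 10 of 93 (10.8%), all lower, where 16.2% of all genes were as far from the median of all genes. Relative to the median of the others, they were Cox8a at 0.224, Cox5b at 0.237, Ndufb2 at 0.245, Cox6a1 at 0.323, Uqcrq at 0.343, Ndufa4l2 at 0.376, Ndufa6 at 0.389, Atp5d at 0.527, Ndufs7 at 0.578 and Ndufab1 at 0.634. The nearest members that did not reach the 1.5-fold departure were Ndufs3 at 0.672, Ndufb9 at 0.709, Cox8b at 0.73 and Cox5a at 0.732. In complex II, Sdha, the flavoprotein that oxidises succinate, was at 1.2 and Sdhb, its iron-sulfur partner, at 0.873, and in complex III the hinge protein Uqcrh was at 1.23. In complex V the catalytic-head subunit Atp5a1 was at 1.15 and the c-ring gene Atp5g1 at 0.816. Among mitochondrial genes mt-Nd4 was at 1.18 and mt-Atp6, compared with mt-Atp8 alone, at 1.19.

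In KO wound over WT wound the pattern was different: the mitochondrial subunits were lower together and the nuclear ones nearly level. The mitochondrial sum gave 0.761 (0.758 to 0.764) and the nuclear sum 0.932 (0.928 to 0.936). With both libraries weighted to the same layers they gave 0.849 and 0.927, so the gap between the genomes narrowed. All 12 mitochondrial genes lay between 0.667 and 0.785 with a median log2 ratio of -0.43, while the median was -0.10 over 81 nuclear subunits and 0.05 over all 12460 genes compared. None of the mitochondrial genes passed the 2-fold threshold. The pieces of the mitochondrial sum overlapped, with 35268 to 49619 CPM for KO wound, and leaving out 1 piece gave 0.678 to 0.821. Between the same libraries the summed neutrophil markers went from 370.2 to 639 CPM and the enteric nerve markers from 228 to 138 CPM. The surface epithelium markers went from 19714 to 22539 CPM. For each of these lists the pieces of WT wound and KO wound overlapped, and the part of the lists in the ratios was not tested.

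The level of mt-Co1, the catalytic core of complex IV, was 19163, 10684 and 13992 CPM in the intact pieces, 15836, 15855 and 12378 in those of WT wound, and 13061, 11612 and 8881 in those of KO wound. KO wound held the lowest piece, but WT intact spanned nearly all of the wound pieces, and the KO over WT wound ratio was 0.766 (0.76 to 0.771). mt-Cytb, the cytochrome b of complex III, was at 5233, 3884 and 4378 CPM, then 5291, 4176 and 3937, then 4222, 2990 and 3082, a ratio of 0.785 (0.774 to 0.796). Here piece 1 of KO wound lay above 2 of the pieces of WT wound. The proton-channel subunit mt-Atp6 had 0.765, and the complex I subunits mt-Nd1, mt-Nd2, mt-Nd3, mt-Nd4, mt-Nd4l and mt-Nd5 had 0.718, 0.704, 0.745, 0.76, 0.704 and 0.741. Of the mitochondrial genes, mt-Nd5 (193, 167 and 212 CPM in WT wound; 156, 132 and 119 in KO wound) and mt-Atp8 (47.1, 45.4 and 59.8; 37.3, 32.2 and 26.6) had all KO pieces below all WT wound pieces.

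That was so for 12 of the 98 members compared (12.2%, against 2.24% of all genes), and no member had all KO pieces above (5.79% of all genes). The 10 nuclear ones were Ndufb9, Ndufs6, Ndufv1, Sdhc, Uqcr11, Uqcrfs1, Cox4i1, Atp5c1, Atp5e and Atp5g1. Cox4i1, the main isoform of subunit 4, went from 2190, 2117 and 2231 CPM in WT wound to 2031, 2094 and 1964 in KO wound, a ratio of 0.932 (0.914 to 0.95). No member reached 2 (0.73% of all genes did) and 1 (1.02%) was at or below 0.5, against 0.746% of all genes, a share near the background. The same gene was the only 1 of 92 (1.09%) that departed from its complex, against 6.06% of all genes.

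That gene was Cox8b, the isoform of subunit 8 typical of striated muscle and brown fat, with 109, 92 and 35 UMIs. Its pieces were at 6.07, 9.06 and 20.6 CPM in the intact pieces, 7.82, 5.68 and 11.7 in those of WT wound, and 7.85, 0.379 and 2.22 in those of KO wound, a KO over WT wound ratio of 0.482 (0.317 to 0.718). The pieces overlapped, since piece 1 of KO wound, at 7.85 CPM, lay within the range of those of WT wound, 5.68 to 11.7 CPM. That piece held 39 of the 66 muscle-led spots of its library, and the ratio was 0.16 without it. With both libraries weighted to the same layers the ratio was 0.882, and it was above 0.5 without piece 3 of WT wound (0.58) and without piece 2 or piece 3 of KO wound (up to 0.664). The summed level of the 9 skeletal muscle markers was 66.1, 27.7 and 26.9 CPM, with Myh4 at 0, and that of the 7 adipocyte markers 113, 166 and 98 CPM, with Ucp1 at 0. The part of those cells in Cox8b was not tested.

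By layer, the KO over WT wound ratio of the mitochondrial sum was lowest in surface-led spots under the main layer rule. Under that rule it was 0.725 in epithelium-led and 0.89 in muscle-led spots. With raw UMIs of 2 marker lists as the rule it was 0.756 and 0.787, so the order stayed the same and the gap narrowed. The other kinds of spot were not compared under the second rule. In surface-led spots the mitochondrial sum was 71829 CPM for the intact library, 70356 for WT wound and 50644 for KO wound, a KO over WT wound ratio of 0.72 (0.716 to 0.724), and leaving out 1 piece gave 0.613 to 0.779. Even so the pieces overlapped, 55671 to 77163 CPM against 40735 to 64629 CPM. In crypt-led spots the sums were 23068, 30142 and 25650 CPM and the ratio 0.851, which became 1.05 without piece 1 of WT wound. In muscle-led spots they were 55112, 63357 and 56380 CPM with a ratio of 0.89, which became 1.03 without the same piece, and in stroma- and immune-led spots 35046, 34883 and 33160 CPM with a ratio of 0.951, which became 1.3 without it. The difference between layers was not tested. Median UMIs per surface-led spot were 29711, 24930 and 20543, so depth and the mitochondrial level fell in the same order there. Per crypt-led spot they were 19566, 15686 and 10872, where the mitochondrial sum was highest in WT wound. The part of depth was not tested.

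Under the main layer rule, the nuclear sum was lower in every layer in both comparisons, by amounts that differed between layers. Under the other layer rule, its KO over WT wound ratio was lower in muscle-led than in epithelium-led spots. With the main rule, the WT wound over WT intact ratio of the nuclear sum was 0.758 in surface-led, 0.787 in crypt-led, 0.799 in muscle-led and 0.825 in stroma- and immune-led spots. Its KO over WT wound ratio was 0.916, 0.931, 0.923 and 0.941. The order of layers also differed by complex. At WT wound over WT intact, nuclear complex I was at 0.78 in surface-led and 0.856 in muscle-led spots, and complex III at 0.793 and 0.703.

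**Figure D4:**
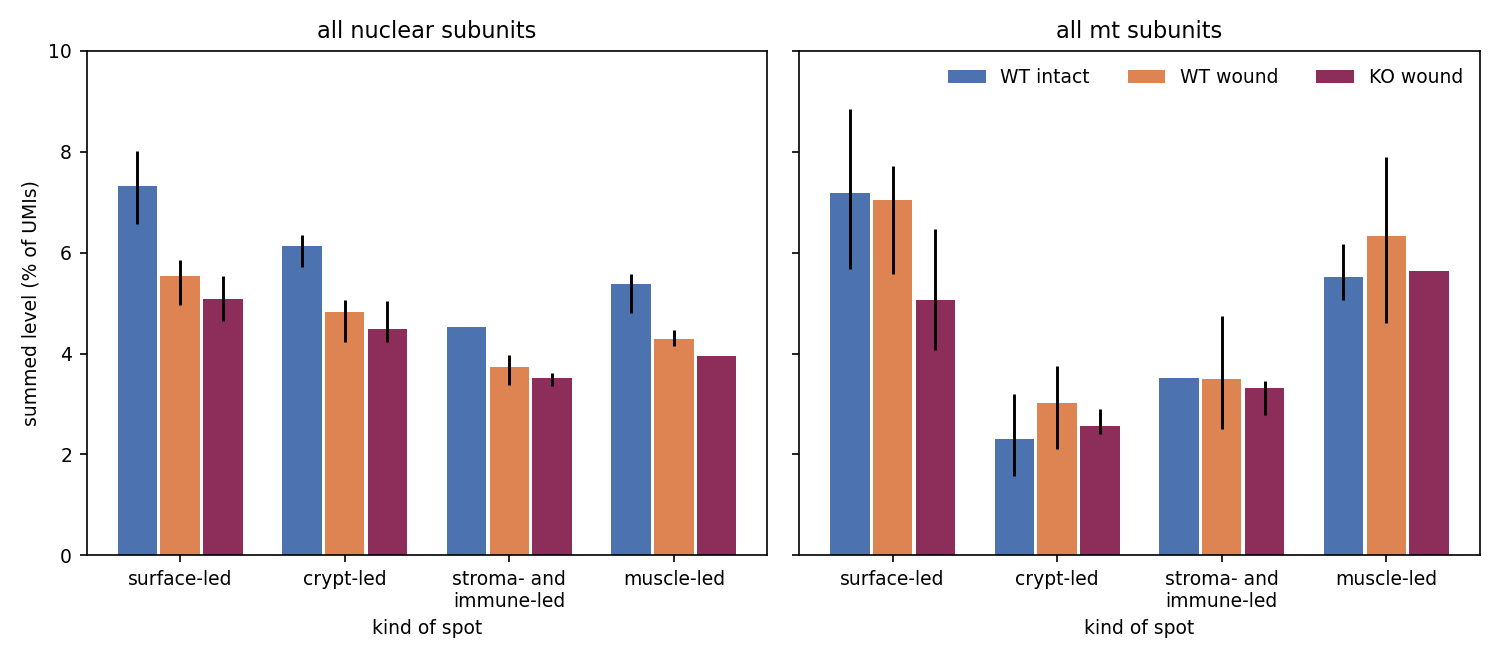
Summed level, as a percent of UMIs, of the 82 nuclear and the 12 mitochondrial subunits in 4 kinds of spot; bars are whole libraries and black lines run from the lowest to the highest piece with at least 20 such spots, where more than 1 piece had them. The nuclear bars of WT wound are below those of WT intact in each kind of spot, and the mitochondrial bar of KO wound is lowest in surface-led spots relative to WT wound (50644 against 70356 CPM).

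Within each library, the median mitochondrial gene leaned more toward muscle than the median nuclear one, while the mitochondrial sum differed little between these spots in the WT libraries. The median log2 ratio of muscle-led over epithelium-led spots was 0.68, 0.81 and 0.96 over the mitochondrial subunits, and -0.35, -0.23 and -0.15 over the nuclear ones, with -0.04, 0.03 and 0.01 over all genes. The mitochondrial sum was 55112, 63357 and 56380 CPM in muscle-led and 54014, 60609 and 43916 CPM in epithelium-led spots, and in the WT libraries it was higher in surface-led than in muscle-led spots. Of 95 members, 25 (26.3%) were above 0 in every library and 51 (53.7%) below, where 35.8% and 36% of all genes were. The mitochondrial genes themselves were graded. mt-Nd4l, with the fewest UMIs of them (355, 401 and 223 in the whole libraries), was at 2.54, 2.29 and 2.16. mt-Nd2 was at 1.72, 1.64 and 1.86, whereas mt-Atp6 was at -0.11, -0.11 and 0.13 and mt-Co1 at -0.59, -0.65 and -0.42.

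Among nuclear genes, the highest toward muscle was Cox8b at 3.72, 4.46 and 3.94, on few UMIs. Cox6b2, an isoform of subunit 6b best known from testis, was at 0.79, 0.98 and 1, and Ndufa4 at 0.40, 0.68 and 1.03. Toward epithelium were Uqcrb, the ubiquinone-binding small subunit of complex III, at -1.31, -1.5 and -1.42, and Sdhd, a membrane anchor of complex II, at -1.34, -1.39 and -1.21. Atp5mpl, a small membrane subunit of the ATP synthase, was at -1.18, -1.15 and -1.14. Each of these 6 genes kept its sign in all 3 libraries. The low gene Ndufa6 also leaned toward epithelium, at -1.23, -0.79 and -1.07, while Uqcrq leaned toward muscle, at 0.23, 0.18 and 0.28.

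Cox7a1 is usually described as the heart and skeletal muscle isoform of subunit 7a, whereas the muscle-led spots were defined by smooth muscle markers. Cox7a1 was at 569.7 CPM in surface-led, 195 in crypt-led and 286 in muscle-led spots of intact tissue. The values were 481, 191 and 159 CPM for WT wound and 412, 184 and 97.6 CPM for KO wound. In each library the surface-led spots were highest, and the log2 ratio of muscle-led over epithelium-led spots was -0.60, -1.37 and -1.83. The level in muscle-led spots was lower in both wound libraries, where those spots were fewer. In those spots the skeletal muscle markers summed to 178, 75.6 and 78.9 CPM, and their part in Cox7a1 was not tested.

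Among epithelium-led spots, both genomes were higher in surface-led than in crypt-led spots, the mitochondrial one more so. The crypt markers were not particular to epithelium. They summed to 502, 405 and 436 CPM in epithelium-led, 956, 714 and 864 in stroma- and immune-led and 448, 495 and 571 in muscle-led spots. The part of other cells in crypt-led spots was not tested. The median log2 ratio of surface-led over crypt-led spots was 1.21, 0.85 and 0.63 over the mitochondrial subunits, 0.14, 0.12 and 0.05 over the nuclear ones and -0.29, -0.38 and -0.33 over all genes. In every library 54 of 95 members (56.8%) were above 0, against 20.7% of all genes, and 24 (25.3%) were below 0, against 56.8% of all genes. mt-Co1 was at 2.12, 1.69 and 1.69, and among nuclear genes Cox7a1 was at 1.55, 1.33 and 1.16 and Uqcrb at 0.91, 1.01 and 1.01. Against this trend, Ndufa4 was at -0.66, -0.59 and -0.59 and the c-ring gene Atp5g2 at -0.75, -0.64 and -0.60, higher in crypt-led spots in all 3 libraries.

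**Figure D5:**
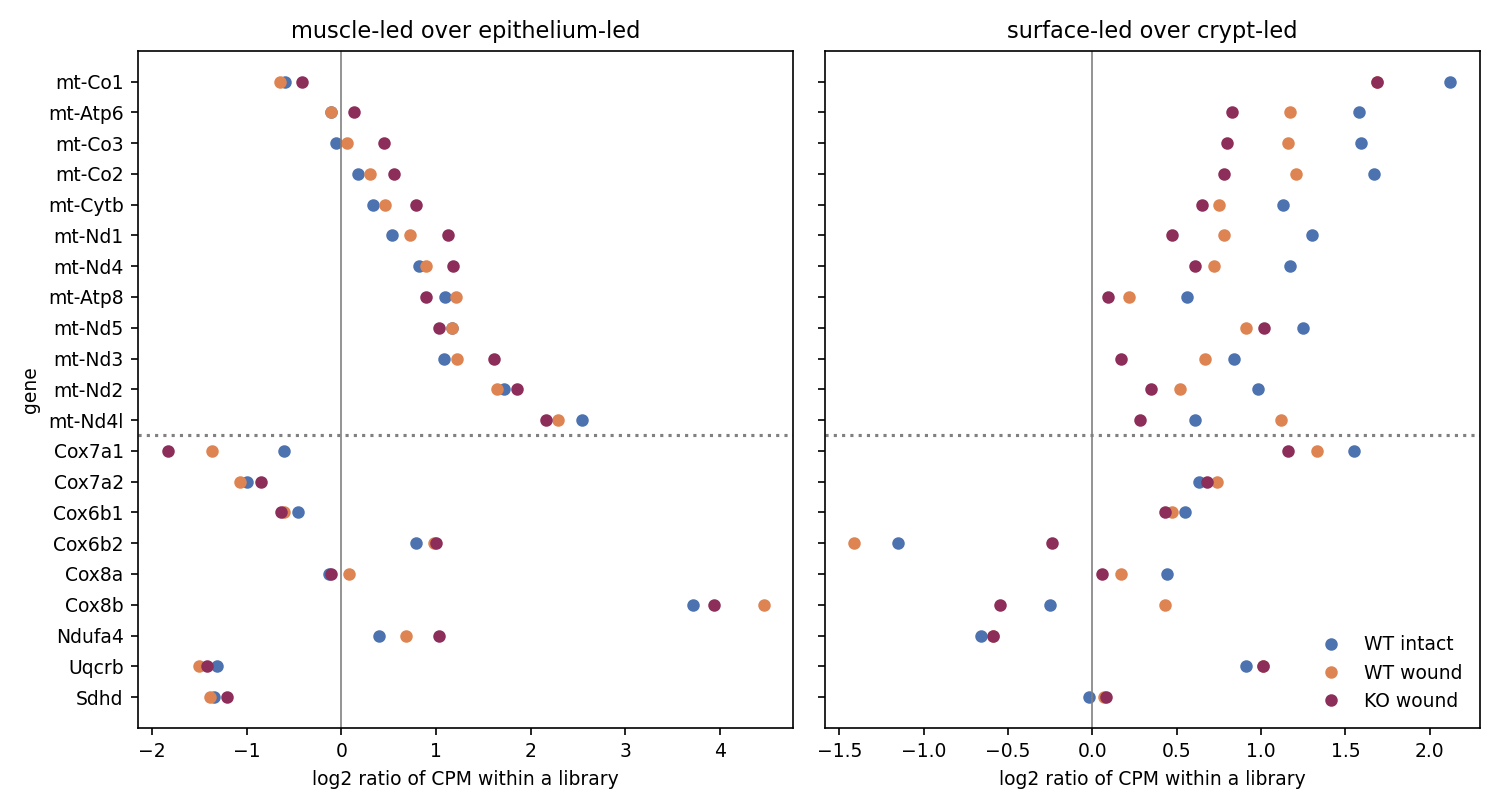
Log2 ratio of CPM between 2 kinds of spot within each library, for the 12 mitochondrial genes (above the dotted line) and 9 nuclear members. mt-Nd4l lies at 2.16 to 2.54 toward muscle and mt-Co1 at -0.65 to -0.42, while mt-Co1 has the largest lean toward the surface of the genes drawn, up to 2.12.

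Genes of other mitochondrial pathways gave a mixed picture at WT wound over WT intact. At or below 0.5 were 9 of 78 mitochondrial ribosomal protein genes, such as Mrpl34 at 0.192 and Mrpl57 at 0.249, where 3.08% of all genes were, and 29 of the 78 had all wound pieces below, against 6.89% of all genes. Among assembly factors, 1 of 8 Ndufaf genes (Ndufaf8, 0.159) and 2 of 17 genes for complex IV assembly (Cox14, 0.395; Coa6, 0.433) were that low, counts too small to set against the 3.08%. None was among 12 genes of the TCA cycle, 12 of fatty acid and ketone oxidation, 8 regulators of mitochondrial biogenesis and 10 of the outer membrane and import. There Cpt1a, which admits fatty acids to mitochondria, was at 1.22, the regulators ran from the mitochondrial transcription factor Tfam at 0.748 to the coactivator Ppargc1b at 1.87 (1.13 to 3.22, on 22 and 57 UMIs), and the inner membrane channel Timm23 was at 0.695. Of 92 cytosolic ribosomal protein genes, 4 were at or below 0.5, a share near the 3.08% of all genes, among them Rpl13 at 0.315 and Rplp2 at 0.358. No gene of these lists was at least 2 in either comparison, or at or below 0.5 in KO wound over WT wound.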

How the data were processed

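Each library is a matrix of raw UMI counts per gene and spot over tissue, deposited by the authors and made with Space Ranger 1.2.1, per the file headers. The genome build was mm10, per the submitters' processing notes. Aligner settings and annotation release are not given in the sources used here. Sections were 10 µm thick, per the labels' protocols.

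UMIs were summed over spots and scaled to CPM. Library totals were 8180099, 11306771 and 8930574. Ratios have exact conditional binomial intervals at 95%, which cover counting error only, and needed 50 UMIs per gene in the 2 libraries together. Pieces were connected groups of at least 20 spots. Layers were the highest of 3 marker scores, and a spot was near a boundary where its top 2 scores were within 1.25 times. The ratio procedure was tested on simulated data drawn with counting error only. That test could not show how the ratios behave under spread between pieces, layers or capture areas.

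The members, complexes and lists were chosen with earlier results of these data known. Named were members past 2-fold, up to 3 per complex and comparison by departure from their complex among those with at least 200 UMIs, all mitochondrial genes, 6 per side by muscle preference, and known tissue isoforms. Just-outside values, surface preferences, example members and Ppargc1b were chosen after their values were seen. Alternatives were 3 other scalings (TMM by edgeR 4.0.16), equal weight per spot, equal layers, other minima and folds, another layer rule and leaving out each piece. Python 3.11.15, numpy 2.4.6, scipy 1.17.1, pandas 2.3.3 and matplotlib 3.10.9 were used. Promoters came from RefSeq; no genome was used.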

Additional observations from a re-analysis of the deposited data

How the results depend on the processing

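No paired analysis was possible because each group is 1 library and the result comes from no test. At WT wound over WT intact, 14 members were lower with a fold of 1.5, and leaving out pieces gave 7 to 9 lower, 0 higher and 9 to 12 departing. The median member log2 ratio was -0.20 with totals without mitochondrial and ribosomal protein genes, -0.25 with TMM, -0.26 with median-of-ratios factors, -0.14 with equal weight per spot, -0.10 with equal layers, -0.17 with a minimum of 200 UMIs and -0.24 to -0.13 without a piece. In the order of those 5 scalings and weights, the nuclear sum gave 0.751, 0.729, 0.724, 0.79 and 0.801 (0.734 to 0.802 without a piece). The mitochondrial sum gave 1.03, 0.996, 0.989, 1.01 and 1.09 (0.924 to 1.16 without a piece, and 0.969 without WT wound piece 1), so its direction turned with TMM, with median-of-ratios factors and without a piece.

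At KO wound over WT wound, 0 members were lower with equal layers or a minimum of 200 UMIs, and 2 with a minimum of 20 UMIs or a fold of 1.5. Departing members were 0, 0 and 2 under the first 3 of these and 0 with a departure fold of 2. Without a piece, both counts were 0 to 1. The median was -0.15, -0.16, -0.16 and -0.09 under the first 4 scalings (-0.18 to -0.08 without a piece). The nuclear sum gave 0.91, 0.902, 0.907, 0.948 and 0.927 (0.9 to 0.956), and the mitochondrial sum 0.744, 0.737, 0.741, 0.737 and 0.849 (0.678 to 0.821).

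With raw UMIs of 2 marker lists as the layer rule, WT wound over WT intact in epithelium-led and muscle-led spots was 0.753 and 0.763 for the nuclear sum and 1.04 and 1.07 for the mitochondrial sum, and KO wound over WT wound was 0.937 and 0.865, and 0.756 and 0.787. Leaving out pieces within a layer, chosen after seeing the data, gave in the same order 0.751 to 0.822 and 0.782 to 0.831, 0.942 to 1.31 and 0.997 to 1.24, 0.869 to 0.953 and 0.843 to 0.943, and 0.632 to 0.793 and 0.825 to 1.03. The cause of these shifts was not tested. The NRF1 motif without its last letter, a change made after the 10-letter result was seen and then set back, was in 28.8% of member promoters and 6.47% of all. The members with fewest UMIs, and so the widest counting error, were Cox4i2 (71), Ndufa4l2 (161), Sdhaf3 (214) and Cox8b (236).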
